A study of Mus musculus with 6 samples.

Results

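The mitochondrial ribosome and protein import genes in the liver were taken as every gene of the deposited table whose symbol starts with Mrpl, Mrps, Timm or Tomm, with pseudogene symbols left out. The rule found 27 of the 3542 genes. These were 14 Mrpl genes (proteins of the large mitoribosomal subunit), 4 Mrps genes (small subunit), 6 Timm genes (translocases and chaperones of the inner membrane and the intermembrane space) and 3 Tomm genes (translocase of the outer membrane). Liver mRNA of 3 Mul1(+/+) and 3 Mul1(−/−) mice was sequenced. Mul1 encodes an E3 ubiquitin ligase of the outer mitochondrial membrane, and the Mul1(−/−) mice were deficient in it in the whole body and came from heterozygous parents. All 6 mice had been kept for 16 weeks on a high-fat diet (HFD), which the study started at 8 weeks of age. Both sexes were used in the study, and neither the sex of the sequenced mice nor the strain is stated in the sources used here. No mice on normal diet are among these libraries, so the genotypes were compared on HFD only. In the paper, Mul1(+/+) mice on HFD became obese with fatty livers, whereas Mul1(−/−) mice gained little weight and showed no steatosis. Genotype therefore cannot be told apart here from body weight and liver fat.

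Mitochondria hold a ribosome of their own, which translates the few mRNAs of the mitochondrial genome, all of them for subunits of the respiratory chain and ATP synthase. Its ribosomal RNAs come from the mitochondrial genome, whereas all of its proteins are encoded in the nucleus, made in the cytosol and imported. Proteins enter through the TOM complex, pass to the TIM23 complex (matrix proteins) or the TIM22 complex (carrier proteins of the inner membrane), and hydrophobic ones are escorted across the intermembrane space by the small TIM chaperones.

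Of the 27 genes, 26 had higher values in Mul1(−/−) HFD-liver and 1, Timm29, had lower values, with log2 fold changes from −1.21 to 2.07 and a median of 1.42. The table itself was selected by the authors on the same 6 libraries for a difference between the genotypes, so a difference in a member carries little weight of its own, and the other genes of the table serve as the background. Of all its genes, 56.8% were higher in Mul1(−/−), and the median log2 fold change was 1.12. All 27 genes are protein-coding, and of the table's 2849 protein-coding genes 48.1% were higher, with a median of −1.04. In the authors' test every gene had a log2 fold change of 1 or more in size. Both medians therefore depend mostly on the share of genes that were higher. On log2(normalized count + 1), limma with Benjamini-Hochberg adjustment over the 3542 genes called 4 of the 27 genes higher (14.8%) at an adjusted p under 0.01 with a log2 fold change beyond 1 in size. The share called higher in the whole table was 16.7% (12.2% of its protein-coding genes), and 0 of the 27 were called lower against 7.43% of the table. Among genes that were higher, 4 of the 26 members were called, against 591 of 2012 in the table and 349 of 1370 protein-coding genes. The 4 called genes, Tomm5, Mrpl54, Timm8b and Mrpl33, encode small proteins of the outer membrane translocase, the large mitoribosomal subunit, the intermembrane space and again the large subunit. The number of calls depended on single libraries, for these genes as for the whole table, where 854 genes were called. Without Mul1(+/+) replicate 1, 2 or 3 or without Mul1(−/−) replicate 2, 0 of the 27 were called in limma (19, 26, 19 and 22 of 27 at an unadjusted p under 0.05), and 25, 13, 46 and 10 of the table. Without Mul1(−/−) replicate 1 it was 3 of the 27 and 631 of the table, and without Mul1(−/−) replicate 3 it was 22 and 2673. The median log2 fold change of the 27 stayed between 1.19 and 1.60 with any library left out. After scaling by the table's median ratio 0 of the 27 were called in limma (12 at an unadjusted p under 0.05) and the median was 0.76, and after scaling by the table total the calls of Tomm5 and Mrpl33 were lost (adjusted p = 0.0109 each). With the replicate number as a block, 0 of the 27 and 0 of the table were called in limma (27 and 3314 at an unadjusted p under 0.05). All 27 genes had an adjusted p under 0.05 in limma, as had 96.3% of the table, and with the limit on the fold change it was 26 of 27 against 95.4%. The groups did not overlap for any of the 27, and they did not overlap for 90.3% of the table. A share near the background is no result about these genes, and what follows describes their values. For each of the 27 genes the exact permutation test (two-sided) gave p = 0.1, the smallest p that 3 mice against 3 allow. The p-values measure the spread between these 6 mice.

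Mul1 was the check of the labels. It had normalized counts of 3172, 3232 and 3423 in the Mul1(+/+) libraries, replicates 1 to 3 in that order here and throughout. In the Mul1(−/−) libraries it had 1037, 965 and 1753, a log2 fold change of −1.44 with an adjusted p of 0.0126 in limma. The groups did not overlap, and Mul1(−/−) replicate 3 lay nearest to Mul1(+/+). What part of the transcript the deletion removes is not given in the sources used here. The reads recovered on the 3542 genes came to 11932163 to 15385822 per library, which is part of each library and not its depth. The 27 genes had between 411 and 596 reads at their lowest in the Mul1(+/+) libraries and between 599 and 977 in the Mul1(−/−) libraries, and up to 9547 at their highest, so counting error is small beside the spread between mice. The labels name both liver and hepatocytes. Of 12 hepatocyte markers 3 are in the table (Hnf4a, Tat and Apob), and their summed normalized count was 181863 to 290795 in Mul1(+/+) and 105171 to 106048 in Mul1(−/−). Of 7 cholangiocyte markers 5 are in the table, with a summed normalized count of 1320 to 1968 in Mul1(+/+) and 4957 to 5446 in Mul1(−/−). Most of each sum was Spp1, with 1109 to 1645 in Mul1(+/+) and 3336 to 4613 in Mul1(−/−). Krt19 had 70 to 107 in Mul1(+/+) and 1151, 176 and 147 in Mul1(−/−) replicates 1 to 3. Of 8 stellate cell markers 2 are in the table, with sums of 4314 to 5241 and 8482 to 28580, and of 8 endothelial markers 2, with sums of 3352 to 3910 and 1184 to 2140. No marker of these 4 lists that is in the table was at 0 in any library. A single lymphocyte marker of 8, Cd8a, summed to 5 to 28 and 33 to 115, and a single erythrocyte marker of 5, Alas2, to 5052 to 7563 and 803 to 4287, while none of 8 macrophage and 5 adipocyte markers is in the table. These sums differed between the genotypes, as the values of the 27 genes did, and their part in the results was not tested. In whole tissue, fewer cells of a type and less RNA per cell cannot be told apart.

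Tomm5 encodes a short tail-anchored subunit that stabilises the TOM complex, and at 51 codons it has the shortest coding sequence of the 27. It had normalized counts of 719, 1376 and 731 in the Mul1(+/+) mice and 2545, 5526 and 3760 in the Mul1(−/−) mice. Every Mul1(−/−) value lay above every Mul1(+/+) value, with Mul1(+/+) replicate 2 and Mul1(−/−) replicate 2 the highest of their groups. The means were 942 ± 376 and 3944 ± 1499 (SD, n = 3 each), and the log2 fold change was 2.06 (SE 0.46, adjusted p = 0.00796 in limma). Tomm7, another small TOM subunit with a role in the assembly of the complex, had 1161, 1564 and 918 in Mul1(+/+) and 3105, 4214 and 2558 in Mul1(−/−). Tomm22, the receptor subunit that organises the TOM complex, had 1585, 2196 and 1635 in Mul1(+/+) and 4175, 6803 and 3842 in Mul1(−/−), the highest mean count of the Tomm genes. In both genes the groups were apart and replicate 2 was again the highest of each genotype. Their log2 fold changes were 1.44 for Tomm7 and 1.42 for Tomm22 (SE 0.41 each, adjusted p = 0.0133 and 0.0136 in limma), outside the threshold. The table holds 3 of the 10 listed TOM genes. The channel Tomm40 and the receptors Tomm20 and Tomm70a are not in the table and were not analysed here.

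**Figure D1:**
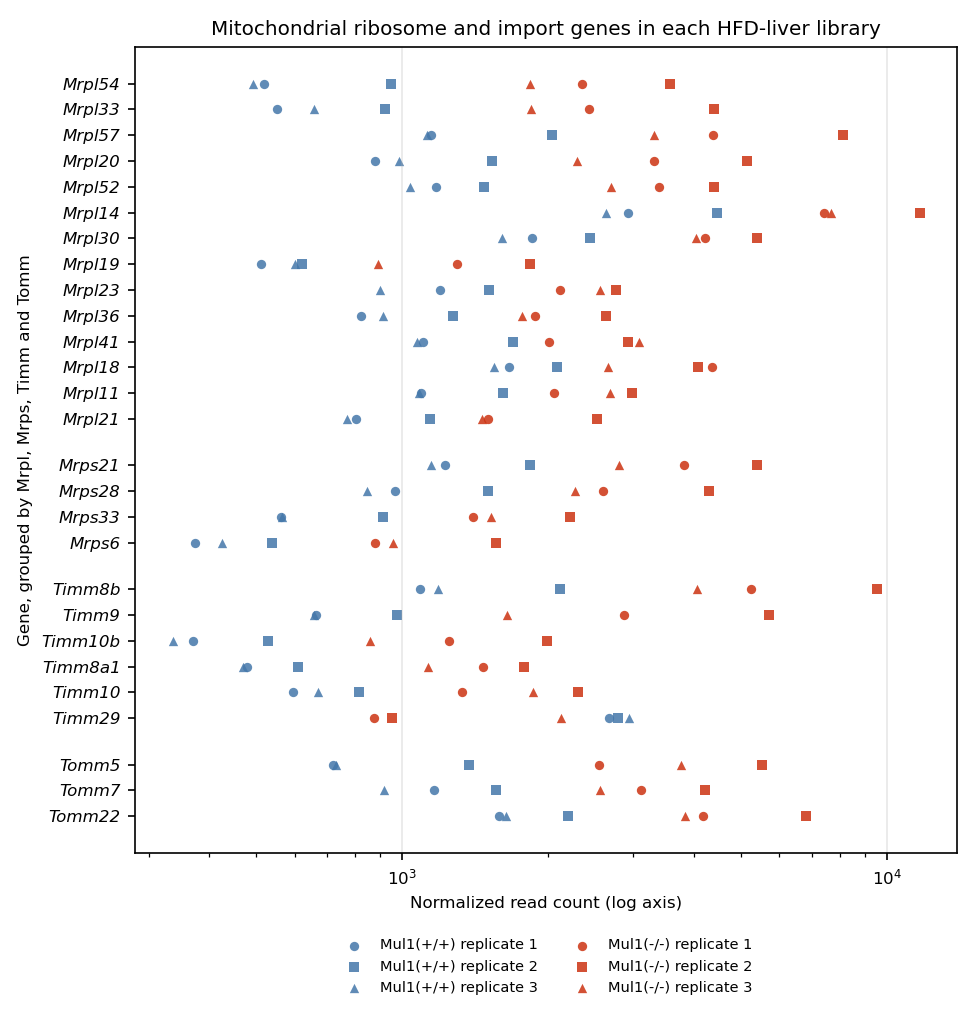
Normalized counts (log axis) of the 27 genes in each of the 6 libraries, with 1 row per gene, in blue for Mul1(+/+) and red for Mul1(−/−), with circles, squares and triangles for replicates 1 to 3. In all rows but that of Timm29 the Mul1(−/−) points lie to the right, and for Timm29 they lie to the left, with replicate 3 at 2125 beside the lowest Mul1(+/+) value of 2669.

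Of the 6 Timm genes 5 encode small TIM chaperones (Timm8a1, Timm8b, Timm9, Timm10 and Timm10b), which form ring-shaped complexes in the intermembrane space. Each small TIM protein carries a pair of twin cysteine motifs that form disulfide bonds inside the intermembrane space. A search for 4 cysteine codons in that arrangement, with 3 codons inside each pair and 8 to 20 codons between the pairs, found all 5 genes and none of the other 22. The spacing also occurred in 536 of 21836 annotated mouse coding sequences (2.45%). Because it marks these 5 genes off from the other 22, the stretch from the first to the last of the 4 cysteine codons is given for each, in the coding direction from GENCODE M21 (GRCm38), with the cysteine codons in capitals.
Timm8b: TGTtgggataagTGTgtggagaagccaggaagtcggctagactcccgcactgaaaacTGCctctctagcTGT
Timm8a1: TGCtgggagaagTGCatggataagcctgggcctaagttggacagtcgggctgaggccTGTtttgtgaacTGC
Timm9: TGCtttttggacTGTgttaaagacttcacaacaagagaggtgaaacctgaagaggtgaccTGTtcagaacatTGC
Timm10b: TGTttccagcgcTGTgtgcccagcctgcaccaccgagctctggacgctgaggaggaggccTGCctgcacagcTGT
Timm10: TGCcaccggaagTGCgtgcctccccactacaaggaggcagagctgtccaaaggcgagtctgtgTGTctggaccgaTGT
Timm8b and Timm8a1 have 14 codons between the pairs, Timm9 and Timm10b 15, and Timm10 16. The genes lie on different chromosomes, with Timm8b at chr9:50603910-50605320, Timm8a1 at chrX:134537256-134541865, Timm9 at chr12:71123173-71136684, Timm10b at chr7:105640056-105643637 and Timm10 at chr2:84826997-84830213. The printed stretches start at coding base 106 in Timm8b, 127 in Timm8a1, 82 in Timm9, 73 in Timm10b and 85 in Timm10.

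All 5 small TIM genes had higher values in Mul1(−/−). Their median log2 fold change was 1.67, and Timm8b alone was called. Timm8b, a partner of Timm13 in the import of some inner membrane proteins, had 1091, 2122 and 1188 in Mul1(+/+) and 5238, 9551 and 4064 in Mul1(−/−), the highest mean count of the Timm genes. The lowest Mul1(−/−) value was 1.92 times the highest Mul1(+/+) value, and the log2 fold change was 2.07 (SE 0.47, adjusted p = 0.00816 in limma), the highest of the 27. Timm9, the partner of Timm10 in the main chaperone ring, had 664, 978 and 658 in Mul1(+/+) and 2874, 5702 and 1647 in Mul1(−/−). Relative to their mean, its Mul1(−/−) libraries were the furthest apart of the 27 genes, with a SD of 2080 around a mean of 3408, and the log2 fold change of 1.99 carried the highest SE (0.50, adjusted p = 0.0101 in limma), just outside the threshold. Timm10 had 595, 814 and 670 in Mul1(+/+) and 1328, 2309 and 1858 in Mul1(−/−). Its log2 fold change was 1.38 (SE 0.40, adjusted p = 0.0139), the smallest of the small TIM genes, and its groups did not overlap. Timm10b, which docks the ring on the TIM22 complex, had 371, 528 and 336 in Mul1(+/+) and 1249, 1994 and 858 in Mul1(−/−), a log2 fold change of 1.67 (adjusted p = 0.0112). Timm8a1, the mouse counterpart of the gene mutated in a human deafness-dystonia syndrome, had 479, 609 and 470 in Mul1(+/+) and 1471, 1782 and 1129 in Mul1(−/−), a log2 fold change of 1.48 (adjusted p = 0.0112). Neither passed the threshold, and in each the lowest Mul1(−/−) library was replicate 3. Timm8a1 shares 612 identical bases with the transcript Gm9797, which is not in the table, so its count may be split between them. On the same strand, Timm10b shares 368 exonic bases with Gm45799, which is not in the table, so its count may be split between them. Timm10b also overlaps Arfip2 on the opposite strand over 277 exonic bases. Whether the authors counted by strand is not stated, so reads there cannot be told apart. The same holds for Timm8b, which overlaps Nkapd1, not in the table, on the opposite strand over 81 exonic bases. It holds also for Timm9, Mrpl14, Mrpl18 and Mrpl21, with 48, 106, 141 and 117 such bases shared with genes not in the table.

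Timm29 was the exception. It encodes a subunit of the TIM22 complex that bridges to the outer membrane translocase, and its coding sequence of 266 codons is the longest of the 27 apart from that of Mrpl19. The gene lies at chr9:21592722-21595970 on the plus strand of GRCm38. The normalized counts in Mul1(+/+) were 2669, 2791 and 2939, and those in Mul1(−/−) 875, 953 and 2125. The Mul1(+/+) libraries lay close together (2800 ± 135, SD, n = 3), replicates 1 and 2 of Mul1(−/−) were well below them, and replicate 3 lay nearest, as it did for Mul1. The log2 fold change was −1.21 (SE 0.44, adjusted p = 0.0263 in limma), outside the threshold. Without Mul1(−/−) replicate 3 it was −1.61 (adjusted p = 0.00255 in limma), inside the threshold, which 2673 genes of the table then passed. Without Mul1(−/−) replicate 1 the log2 fold change was −0.97 (adjusted p = 0.0915 in limma), outside the threshold. Timm29 was also outside it with any other library left out. Timm29 overlaps Yipf2 on the opposite strand over 107 exonic bases, and Yipf2 is not in the table.

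The Mrpl genes were all higher in Mul1(−/−), with log2 fold changes from 0.99 to 2.0 and a median of 1.19, and 2 of the 14 were called. Mrpl54, a protein of the large subunit, had 518, 947 and 492 in Mul1(+/+) and 2348, 3578 and 1837 in Mul1(−/−). Its lowest Mul1(−/−) value was 1.94 times its highest Mul1(+/+) value, and the log2 fold change was 2.0 (SE 0.45, adjusted p = 0.00801 in limma). Mrpl33, one of the smallest large-subunit proteins with 65 codons, had 553, 920 and 657 in Mul1(+/+) and 2427, 4393 and 1843 in Mul1(−/−). This was the widest relative gap between the groups among the 27, with a factor of 2.0 between the nearest libraries, and the log2 fold change was 1.96 (SE 0.45, adjusted p = 0.00839 in limma). Mrpl33 shares 177 exonic bases on the same strand with Gm43809, which is not in the table, so its count may be split between them. Mrpl57 had 1147, 2039 and 1124 in Mul1(+/+) and 4376, 8139 and 3313 in Mul1(−/−), and its log2 fold change of 1.83 had an adjusted p of 0.0107. Mrpl20 had 880, 1534 and 984 in Mul1(+/+) and 3310, 5151 and 2291 in Mul1(−/−), a log2 fold change of 1.63 (adjusted p = 0.0122). Mrpl52 had 1173, 1474 and 1039 in Mul1(+/+) and 3390, 4398 and 2702 in Mul1(−/−), a log2 fold change of 1.49 (adjusted p = 0.0112). These 3 genes, also of the large subunit, had groups that were apart and adjusted p-values just over the threshold.

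Mrpl14, which sits at the face of the large subunit that meets the small one, had the highest normalized counts of the 27 genes. Its values were 2925, 4471 and 2630 in Mul1(+/+) and 7405, 11692 and 7676 in Mul1(−/−), with means of 3342 ± 989 and 8924 ± 2401 (SD, n = 3 each). The groups did not overlap, and the log2 fold change of 1.42 had an adjusted p of 0.0139 in limma. The other 8 Mrpl genes (Mrpl11, Mrpl18, Mrpl19, Mrpl21, Mrpl23, Mrpl30, Mrpl36 and Mrpl41) formed the low end, with log2 fold changes from 0.99 (Mrpl21, adjusted p = 0.039) to 1.22 (Mrpl30, adjusted p = 0.0177). Mrpl21 was the only one of the 27 below an absolute log2 fold change of 1 on this scale. It had 804, 1141 and 768 in Mul1(+/+) and 1502, 2525 and 1461 in Mul1(−/−), so its nearest libraries of the 2 genotypes differed by a factor of 1.28. For Mrpl23, 540 bases (78.0% of the transcript) are identical to those of the processed pseudogene Mrpl23-ps1, and Mrpl21 and Mrpl41 share 565 and 372 bases at 97.2% and 97.8% identity with processed pseudogenes. Matches to processed pseudogenes, as a share of the transcript, were also found for the called gene Tomm5 (24.1%, at 98.7% identity), and for Mrps33 (29.0%, 99.7%) and Tomm7 (up to 14.9%, 95.8%), and one of 54.1% (97.3% identity) for Mrps21. None of these pseudogenes is in the table, and how the authors treated reads that match both is not stated, so the counts of these 7 genes are uncertain to that extent.

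The 4 Mrps genes stood close together, with log2 fold changes from 1.31 to 1.49, and 0 of the 4 were called in limma, whereas all 4 had an unadjusted p under 0.05. Mrps21, a small-subunit protein of 87 codons, had 1228, 1838 and 1145 in Mul1(+/+) and 3814, 5403 and 2798 in Mul1(−/−), the highest mean of the 4 and a log2 fold change of 1.49 (adjusted p = 0.0132). Mrps28 had 968, 1501 and 846 in Mul1(+/+) and 2601, 4291 and 2275 in Mul1(−/−), a log2 fold change of 1.46 (adjusted p = 0.0146). Mrps33 had 562, 912 and 564 in Mul1(+/+) and 1398, 2217 and 1527 in Mul1(−/−), a log2 fold change of 1.34 (adjusted p = 0.0158). All 3 had replicate 2 as the highest library of each genotype and no overlap between the groups. Mrps6 had the lowest counts of the 4, with 373, 539 and 424 in Mul1(+/+) and 878, 1559 and 958 in Mul1(−/−), and a log2 fold change of 1.31 (adjusted p = 0.0166). Mrps6 shares exonic bases on the same strand with Slc5a3 (159 bases) and with the readthrough gene Gm49711 (305 bases), neither of them in the table.

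**Figure D2:**
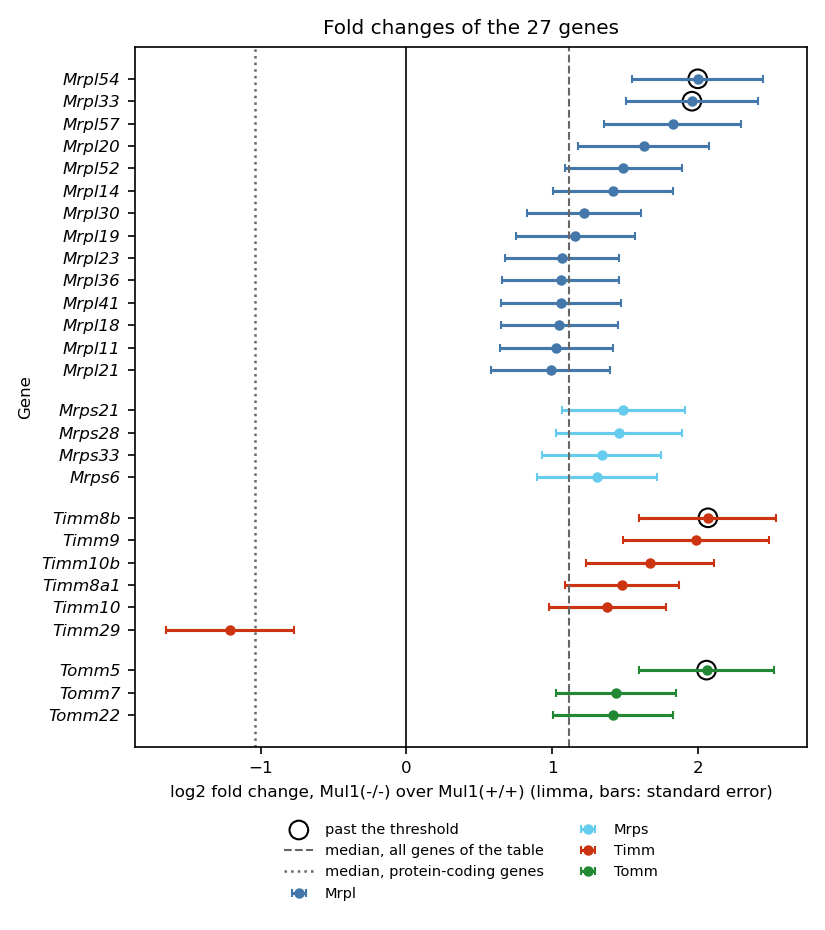
log2 fold change of the 27 genes (Mul1(−/−) minus Mul1(+/+), log2(normalized count + 1)), coloured by family, with bars of 1 SE, a ring where limma called the gene, a dashed line at the table's median of 1.12 and a dotted line at the median of its protein-coding genes, −1.04. The 4 called genes lie at 1.96 to 2.07, and Timm29 at −1.21 is the single gene left of 0. Both medians were taken over higher and lower genes together.

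The order of the libraries was nearly the same from gene to gene. Among the 26 genes higher in Mul1(−/−), Mul1(+/+) replicate 2 was the highest of its group in 26 of 26, and Mul1(−/−) replicate 2 was the highest of its group in 24 of 26. The exceptions were Mrpl18, where Mul1(−/−) replicate 1 led with 4362, and Mrpl41, where replicate 3 led with 3079. Among the 2012 genes of the table that were higher in Mul1(−/−), the same libraries were highest in 58.1% and 53.1%. The lowest Mul1(−/−) library was replicate 3 for 18 genes and replicate 1 for 8. Relative to each gene's mean log2 value in Mul1(+/+), the median of the 27 genes was −0.17, 0.38 and −0.23 in Mul1(+/+) and 1.28, 1.83 and 1.12 in Mul1(−/−) replicates 1 to 3. The nuclear genes of the respiratory chain and ATP synthase (41 in the table) followed the same order, with 1.32, 1.96 and 1.11 in Mul1(−/−), and so did the 58 cytosolic ribosomal protein genes, with 1.72, 2.24 and 1.60. Over all genes of the table the medians in Mul1(−/−) had this order too, with 0.98, 1.28 and 0.38. Over its protein-coding genes, of which 48.1% were higher, they were −0.62, −0.97 and −0.45. The 11 mRNAs of the mitochondrial genome that are in the table, templates of the mitoribosome, did not follow the order of the 27 genes. Their medians were 0.22, −0.25 and −0.06 in Mul1(+/+) and 2.49, 1.11 and 0.09 in Mul1(−/−), so that Mul1(−/−) replicate 1 was highest and replicate 3 was close to Mul1(+/+). All 11 were higher on average (median log2 fold change 1.25), 0 of 11 were called in limma with 5 of 11 at an unadjusted p under 0.05, and the groups were apart for 2 of 11. The difference in library order between the nuclear and the mitochondrial mRNAs was not tested.

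**Figure D3:**
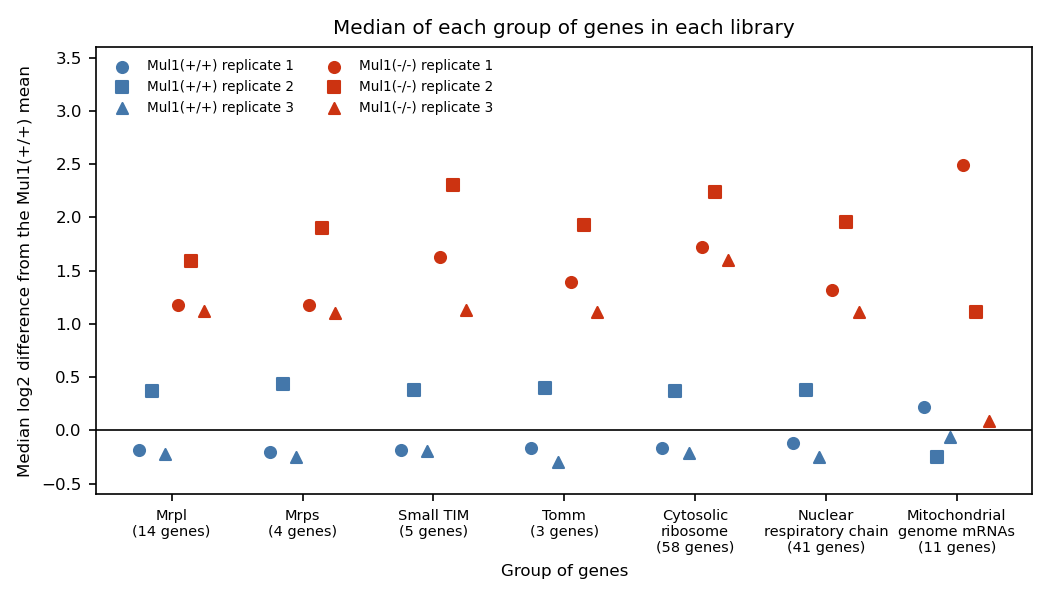
Median over the genes of a group of the log2 difference from each gene's Mul1(+/+) mean, with 1 point per library (blue for Mul1(+/+), red for Mul1(−/−), circles, squares and triangles for replicates 1 to 3), for the Mrpl, Mrps, small TIM and Tomm genes and the 3 compared groups. The nuclear groups are highest in Mul1(−/−) replicate 2 (2.30 for the small TIM genes), and the mitochondrial genome mRNAs are highest in replicate 1 (2.49) and lie at 0.09 in replicate 3.

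By size of the difference, the 27 genes lay beside the nuclear respiratory chain genes and below the cytosolic ribosomal protein genes. The median log2 fold change was 1.44 for the 41 respiratory chain and ATP synthase genes, of which 40 were higher and 10 were called. For the 58 cytosolic ribosomal protein genes, whose proteins form the ribosome that makes all imported proteins, it was 1.91, with 58 higher and 42 called. These counts describe the groups, with no test of the difference between them.

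Within the 27 genes, short coding sequences went with larger differences. Spearman's rho of the log2 fold change with coding length was −0.69 over the 27 genes and −0.65 without Timm29, and with transcript length it was −0.47. The 27 points share the same 6 libraries and are not independent. Among the 2822 other protein-coding genes of the table, rho with transcript length was −0.43, so a relation with transcript length was present across the table. For coding length, rho was not computed in those other genes, so the −0.69 has no background. All 16 genes with a transcript under 1000 bases were higher in Mul1(−/−), and their log2 fold changes had a median of 1.47. Of the 332 other protein-coding genes of that length 321 (96.7%) were higher, with a median of 1.59, and without the ribosomal and respiratory chain genes it was 248 of 259 (95.8%), with a median of 1.51. Between 1000 and 1999 bases 6 of 6 were higher, against 74.8% of 512 other genes. From 2000 to 5000 bases 4 of 5 were higher (Mrpl11, Mrpl19, Mrpl57 and Timm10b) and Timm29 was lower, against 36.7% of 1416 other genes higher. Short genes of the table were thus nearly all higher in Mul1(−/−), with or without the ribosomal and respiratory chain genes. The part of transcript length in the result was not tested.

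**Figure D4:**
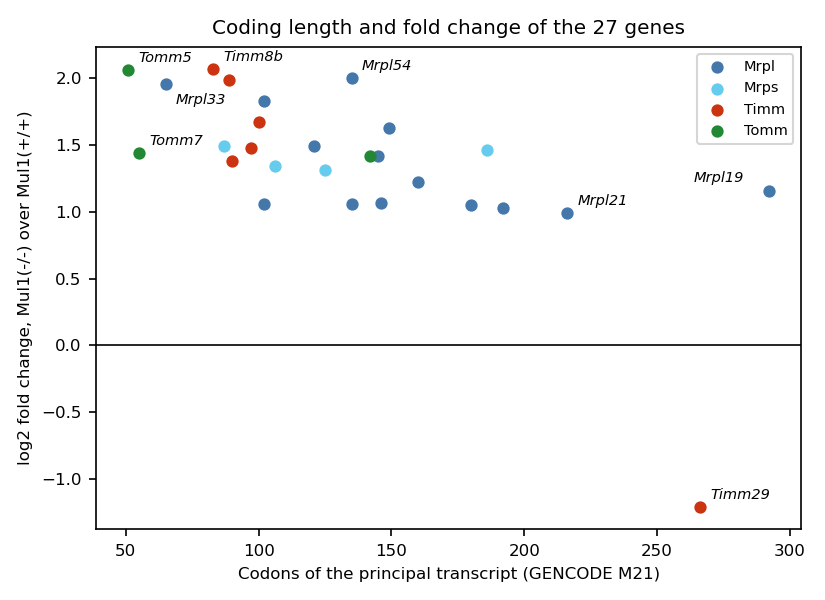
log2 fold change (Mul1(−/−) minus Mul1(+/+)) of the 27 genes against coding length in codons, coloured by family. Values run from 2.06 at 51 codons (Tomm5) to 1.16 at 292 codons (Mrpl19), and Timm29 at 266 codons lies at −1.21.

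Levels of different genes were compared per 1000 bases of transcript. In Mul1(+/+) the normalized count per 1000 bases of the Mrpl and Mrps genes ran from 116 (Mrpl19) to 5182 (Mrpl14) with a median of 1429, and in Mul1(−/−) from 269 (Mrpl19) to 13836 (Mrpl14) with a median of 3514. The highest and lowest differed 44.7-fold in Mul1(+/+) and 51.4-fold in Mul1(−/−). Without Mrpl19 the lowest was Mrpl11 in both genotypes (415 and 845), and the ratios were 12.5-fold and 16.4-fold. Mrpl19 has the longest annotated transcript (5000 bases), most of it outside the coding part, and shares 1962 exonic bases with Gcfc2 on the opposite strand, so its level per length depends on the transcript assumed. The TOM genes were closer together, from 1079 (Tomm7) to 1474 (Tomm5) in Mul1(+/+) and from 2926 to 6172 in Mul1(−/−). The Timm genes ran from 126 (Timm10b) to 2832 (Timm8b) in Mul1(+/+), and in Mul1(−/−) from 416 (Timm29) to 12132 (Timm8b). Timm29 was above Timm10b in Mul1(+/+), with 883 against 126, and level with it in Mul1(−/−), with 416 against 418. The transcripts of Timm10b, Timm29 and Mrpl11 have 3273, 3170 and 3045 bases, of which 300, 798 and 576 are coding. Their levels per length, and this comparison, therefore also depend on the transcript assumed.

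**Figure D5:**
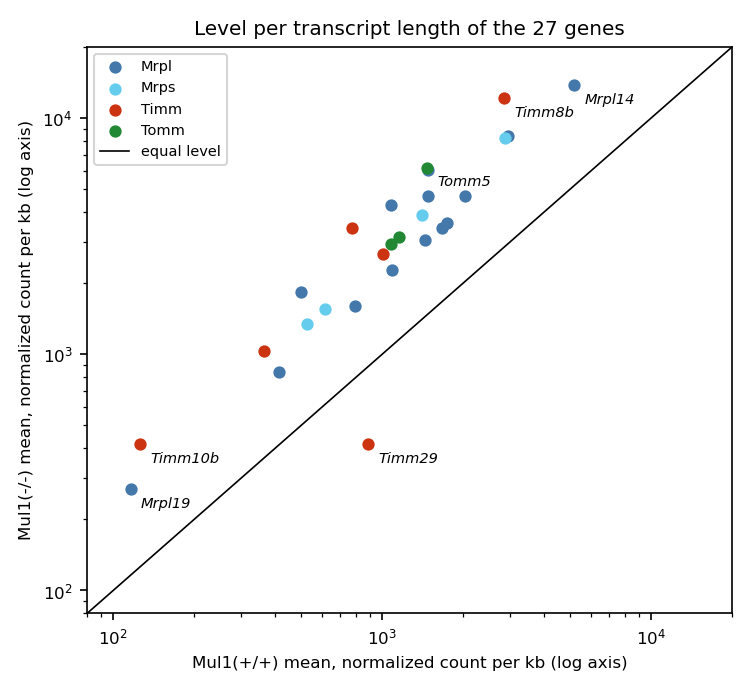
Mean normalized count per 1000 transcript bases of each gene in Mul1(+/+) (horizontal) and Mul1(−/−) (vertical), both on log axes, with a line of equal levels. Mrpl14 is highest (5182 and 13836), Mrpl19 and Timm10b are lowest in Mul1(+/+) (116 and 126), and Timm29 is the single gene below the line.

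Most other genes of the same machinery, taken from lists of its known members, are not in the table. For the large subunit 15 of 50 listed genes are in the table, the 14 Mrpl genes and Gadd45gip1 (log2 fold change 1.25, adjusted p = 0.0222). For the small subunit it is 5 of 33, the 4 Mrps genes and Chchd1 (1.10, adjusted p = 0.0269). For the TIM23 and TIM22 translocases it is 5 of 13. Besides Timm29 these are subunits and partners of the import motor and its channel. Dnajc15, a J-protein of the motor, had 777, 1369 and 816 in Mul1(+/+) and 3450, 7435 and 2911 in Mul1(−/−), a log2 fold change of 2.14 that passed the threshold (adjusted p = 0.00796). Pam16, its binding partner, stood at 1.69 (adjusted p = 0.0111), Romo1, a subunit of the TIM23 channel, at 1.67 (adjusted p = 0.0113) and Dnajc19, another J-protein, at 1.29 (adjusted p = 0.0164), outside the threshold. Of 20 further import partners 1 is in the table, the inner membrane peptidase Immp1l (1.34, adjusted p = 0.0192).

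Genes that assemble or serve the mitoribosome did not all lie on 1 side. The 3 assembly factors in the table, of 22 listed, were higher: Malsu1 had a log2 fold change of 1.41 (adjusted p = 0.0137), Mettl15 1.06 (adjusted p = 0.0465) and Gtpbp10 0.92 (adjusted p = 0.0605), and 0 of the 3 were called in limma, with 2 of 3 at an unadjusted p under 0.05. Of 14 translation factors 2 are in the table, and they differed in direction. Slirp, which stabilises mitochondrial mRNAs, had 619, 927 and 548 in Mul1(+/+) and 2496, 4866 and 1540 in Mul1(−/−), a log2 fold change of 1.96 (adjusted p = 0.0101). Taco1, the activator of translation of the mitochondrial mt-Co1 mRNA, had 1423, 1528 and 1355 in Mul1(+/+) and 301, 425 and 1112 in Mul1(−/−), a log2 fold change of −1.46 (adjusted p = 0.0226). As for Timm29, Mul1(−/−) replicate 3 lay nearest to Mul1(+/+). Of 20 mitochondrial aminoacyl-tRNA synthetase and amidotransferase genes 2 are in the table, Lars2 at 1.64 (adjusted p = 0.0203) and Sars2 at −1.33 (adjusted p = 0.0231). Lars2 had 48495, 25444 and 10174 in Mul1(−/−) replicates 1 to 3, there the library order of the mitochondrial genome mRNAs and not that of the 26 genes. In Mul1(+/+) it had 6946, 8141 and 7356, with replicate 2 the highest, as in the 26 genes. Of 14 mitochondrial chaperones and proteases 3 are in the table, the chaperonin partner Hspe1 at 1.58 (adjusted p = 0.0114), and the protease subunits Spg7 at −1.26 (adjusted p = 0.0258) and Clpx at −1.31 (adjusted p = 0.0355). Of 16 regulators of mitochondrial biogenesis Mterf1a alone is in the table, at 1.5 (adjusted p = 0.0164), and neither of the 2 mitochondrial ribosomal RNAs is. None of these genes of the assembly, translation, synthetase, chaperone and regulator lists passed the threshold.

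The 27 genes are spread over 17 chromosomes. For 10 of the 27 (37.0%) a protein-coding gene starts on the opposite strand within 1000 bases upstream or 500 bases downstream of their own start, an arrangement known as a divergent gene pair. Among the 2849 protein-coding genes of the table, 349 (12.2%) have such a neighbour. Of the 10 neighbours 3 are in the table, and all 3 had higher values in Mul1(−/−). Ndufs6, a subunit of complex I whose start overlaps that of Mrpl36, had a log2 fold change of 1.25 (adjusted p = 0.0181), beside 1.06 for Mrpl36. Mitd1, which starts 66 bases from Mrpl30, had 1.13 (adjusted p = 0.0230), beside 1.22 for Mrpl30. Arfip2, the partner that overlaps Timm10b, had 1.05 (adjusted p = 0.0392), beside 1.67. None of the 3 passed the threshold. Timm8b starts 98 bases from Sdhd, a subunit of complex II that is not in the table.

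Promoter windows from 250 bases before to 50 bases after the start were at hand from RefSeq (GRCm38.p6) for 23 of the 27 genes. They are shown because 2 nuclear factors known for control of mitochondrial genes, NRF1 and the ETS-family factor GABP, bind short motifs near the starts of such genes, and the letters can be searched. On both strands, the NRF1 core (GCGCA, any base, GCGC) was found in 5 of 23 windows (21.7%), against 8.53% of the windows of the table's genes and 4.6% of 32851 windows in all. The ETS motif CCGGAAG was found in 12 of 23 (52.2%), against 13.9% and 8.86%. The YY1 motif AAGATGGC was found in 1 of 23 (Mrpl36), against 3.54% and 2.75%. The CCAAT box was found in 6 of 23 (26.1%), against 38.0% and 37.4%, and TATAAA in 1 of 23 (Tomm5), against 8.86% and 13.6%. The windows held a median of 21 CG pairs, against 18 for the table's genes and 7 for all windows, and motifs made of C and G are met more often in such windows. The 100 bases before the start are printed 5′ to 3′ on the strand of the gene for 3 genes with an NRF1 core match and 4 with an ETS match there. The matched letters are in capitals, and a match on the opposite strand reads as GCGC, any base, TGCGC or as CTTCCGG.
Mrpl30, chr1:37890377-37890476, plus strand: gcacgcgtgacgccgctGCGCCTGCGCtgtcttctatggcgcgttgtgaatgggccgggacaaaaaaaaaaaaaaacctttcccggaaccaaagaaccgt
Mrpl57, chr14:57826139-57826238, plus strand: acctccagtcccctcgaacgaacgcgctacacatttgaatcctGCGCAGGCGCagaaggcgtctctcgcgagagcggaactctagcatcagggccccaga
Mrps21, chr3:95871515-95871614, minus strand: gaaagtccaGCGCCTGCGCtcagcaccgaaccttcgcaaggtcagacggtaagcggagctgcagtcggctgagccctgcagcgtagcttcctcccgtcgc
Mrpl52, chr14:54426809-54426908, plus strand: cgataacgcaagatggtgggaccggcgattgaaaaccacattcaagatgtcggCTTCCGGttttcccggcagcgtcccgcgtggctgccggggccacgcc
Timm10, chr2:84826921-84827020, plus strand: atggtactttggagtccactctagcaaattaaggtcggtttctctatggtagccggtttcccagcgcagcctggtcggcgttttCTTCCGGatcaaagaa
Timm8b, chr9:50603801-50603900, plus strand: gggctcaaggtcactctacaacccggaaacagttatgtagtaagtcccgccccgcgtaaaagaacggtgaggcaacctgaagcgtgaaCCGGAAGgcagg
Tomm22, chr15:79670768-79670867, plus strand: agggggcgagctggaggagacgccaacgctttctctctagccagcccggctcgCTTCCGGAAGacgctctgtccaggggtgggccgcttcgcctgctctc
The first 3 hold the NRF1 core and the other 4 the ETS motif, and in Tomm22 a pair of ETS matches on opposite strands, 47 and 44 bases before the start, overlap. The matches lie between 12 and 91 bases before the start. Starts of these windows are those of RefSeq, which can differ from the GENCODE starts used for the gene positions. For Timm10 the window runs past the GENCODE start, and its ETS match lies after that start. Timm29, the gene with lower values in Mul1(−/−), also has an ETS match, 212 bases before its start. Of the 4 genes past the threshold, Timm8b holds the NRF1 core and the ETS motif, Mrpl33 holds the ETS motif 3 bases before its start, Tomm5 holds neither, and no window was at hand for Mrpl54. A match is a run of letters, and binding was not measured.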

How the data were processed

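Liver mRNA-seq of 3 Mul1(+/+) and 3 Mul1(−/−) mice on HFD was used, grouped by the genotype in the labels. Library construction, sequencing and the DESeq2 comparison were done for the authors by a company. The aligner, the counter, the genome build and strand use are not given in the sources used here. The authors deposited normalized counts, whole reads times 1 factor per library (0.817 to 1.46), in which a dash stands for 0. Low values gave what 1 read is worth, and in each library 100% of values below 10000 came out whole to within 0.1 read. The deposited log2 fold changes, p-values and adjusted p-values are the authors' own test results and were not used as results. In every row the adjusted p is 0.05 or less and the log2 fold change is 1 or more in size, so these genes were selected on the same libraries.

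Values were taken as log2(normalized count + 1) without a filter, and the genotypes were compared with limma 3.58.1 in R 4.3.3, with no other term, and Benjamini-Hochberg adjustment over 3542 genes. A fold change on this scale understates that of low genes. The threshold, adjusted p under 0.01 and absolute log2 fold change above 1, follows the study's methods. The members and the gene lists were chosen with earlier results of these data known, and the lists support nothing on their own. Every member could be named. Values per library are given for called members, the 5 smallest p-values and the highest mean in each family, and genes lower in Mul1(−/−). Genes of the other lists are named where the table holds them. Those of them given with values of single libraries (Dnajc15, Slirp, Taco1, Lars2, Spp1 and Krt19) were picked after values were seen. So were Mrpl21, the pseudogene matches and the genes compared across lists. Gene models are from GENCODE M21 (GRCm38), with 3529 identifiers matched and 13 not, and 1 transcript per gene was used for lengths. Near-identical copies were sought with BLAST 2.17.0, at 95% identity over 150 bases. The rest was done in Python 3.11.15 (pandas 2.3.3, numpy 2.4.6, scipy 1.17.1, matplotlib 3.10.9). Alternatives were a filter on the mean, other pseudocounts, rescaling, limma-trend, the replicate number as a block, other thresholds and each library left out in turn.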

Additional observations from a re-analysis of the deposited data

How the results depend on the processing

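Of the 27 genes, 26 were higher and Timm29 was lower in Mul1(−/−) under every alternative run, but the number past the threshold moved widely. It was 4 in the main analysis, 4 with a pseudocount of 0.5 or a filter on the mean, 12 with a pseudocount of 5, 19 with limma-trend, 26 at an adjusted p under 0.05, 2 after scaling by the table total, 7 by that total without the mitochondrial genome, and 0 after scaling by the table's median ratio (limma, 12 of 27 at an unadjusted p under 0.05), where the median log2 fold change of the 27 fell to 0.76 with a table median of 0.46. With libraries left out in turn the number called ran from 0 to 22: 0 without any 1 of the 3 Mul1(+/+) libraries (19, 26 and 19 of 27 at an unadjusted p under 0.05 in limma) or without Mul1(−/−) replicate 2 (22 of 27), 3 without Mul1(−/−) replicate 1, and 22, Timm29 among them, without Mul1(−/−) replicate 3. The median log2 fold change ran from 1.19 to 1.60. The cause was not tested.

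Over the whole table, the calls numbered 854 in the main analysis (591 higher and 263 lower), 1399 with a pseudocount of 5, 1343 after scaling by the table total (619 higher and 724 lower), 1267 by the median ratio (236 higher and 1031 lower), 880 by the total without the mitochondrial genome (709 higher and 171 lower), 1869 with limma-trend and 3380 at an adjusted p under 0.05, and with libraries left out in turn from 10 (without Mul1(−/−) replicate 2) to 2673 (without Mul1(−/−) replicate 3). The scalings moved all log2 fold changes by −0.30, −0.66 and 0.04 for the table total, the median ratio and the total without the mitochondrial genome. Mul1 passed the threshold with a pseudocount of 5 (−1.44, adjusted p = 0.00949), the median ratio (−2.10, adjusted p = 0.00888), limma-trend (−1.44, adjusted p = 0.00546) and at an adjusted p under 0.05, and its log2 fold change ran from −1.71 (without Mul1(−/−) replicate 3, adjusted p = 0.00202, the 1 pass among these) to −1.28 with libraries left out, all in limma. With the replicate number as a block, 0 of the 27 and 0 of the 3542 genes were called in limma (27 and 3314 at an unadjusted p under 0.05). Correlations of same-numbered libraries were 0.02, 0.35 and 0.05, against −0.2 to 0.13 for libraries of unlike number. With 3 libraries per group these values cannot decide whether the numbers pair the mice. Count models on the recovered reads were planned and not run, since the values with commas could not be read as counts in the unit check. That is a limit of the check, as whole reads were recovered in each library. The 27 genes had at least 411 reads in every library.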
